A study of Mus musculus with 2 samples.

Results

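The kinesin and dynein motor genes of mouse colon were compared on 2 arrays, 1 of control Villin-Cre mice and 1 of EP4 cKO mice. They were found by name: a probe was taken when its RefSeq accession maps to a kinesin (Kif followed by a digit or C), a kinesin light chain (Klc), a dynein chain (Dnah, Dync, Dynll, Dynlt or Dynlrb) or a dynactin subunit (Dctn). 76 such genes had a probe (131 probes), and 64 of them were well above background on at least 1 array, of 14669 genes in all with such a value. The control carries the Villin-Cre transgene alone, and the EP4 cKO carries the same transgene with 2 floxed alleles of EP4, the prostaglandin E2 receptor encoded by Ptger4 (genotype Villin-Cre; EP4flox/flox). Both are on the C57BL/6 strain, and by the study's methods the mice were 8 weeks old and untreated for this experiment. The Villin promoter drives Cre in the intestinal epithelium, whereas the RNA came from whole colon and so also from cells that keep EP4. Each array received RNA combined from 3 pools of colon, so there is no replicate array: values are given without a test, and no spread between mice is known.

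Motor proteins walk along microtubules and carry loads. Most kinesins move towards the plus ends of microtubules and cytoplasmic dynein moves towards the minus ends with the help of its activator dynactin. Dividing cells use a dedicated set of kinesins to build the spindle, move chromosomes and complete cytokinesis; all cells use others to move vesicles, mitochondria and endosomes; and cilia rely on kinesin-2, dynein 2 and, where they beat, axonemal dyneins. In the colon, division is confined to the lower crypt, and the epithelium has no multiciliated cells.

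Signals are processed intensities in arbitrary units, scaled on each array to a trimmed mean of 2500, and each gene is described by its brightest probe as the log2 ratio of EP4 cKO over Villin-Cre. A probe that was well above background on 1 array only has a bound: its dim side was held at its own signal or at the lowest signal well above background on that array (125 for Villin-Cre and 57.8 for EP4 cKO), whichever was higher, and where no fold past 1 remained the log2 ratio was counted as 0. In bulk RNA, fewer cells of a type and less RNA per cell cannot be told apart. Signals of different probes are not compared, since each probe has its own brightness.

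Of the 64 motor genes, 46 had a log2 ratio below 0, 14 above 0 and 4 at 0, with a median of -0.41. 11 were more than 2-fold lower in EP4 cKO and 0 were more than 2-fold higher, beside 7.87% and 4.86% of all 14669 genes. Of the lower genes, Kif4-ps, Kifc1 and Kifc5b passed on a bound. With only probes well above background on both arrays, 8 were lower and 0 higher. Of the 11, 3 were still past 2-fold with normexp and quantile normalization, 3 with the spike-in scaling and 8 with loess. Over all genes, normexp and quantile normalization gave 392 more than 2-fold lower and 602 higher of 14664. Loess gave 758 and 1117 of 14669. At a 1.5-fold threshold, 25 were lower and 3 higher, beside 18.6% and 9.84% of all genes. Over all genes 57.5% had a log2 ratio below 0 and the median was -0.10. The 3 kinds of motor differed in their values: the median was -0.92 for mitotic motors, -0.31 for ciliary motors and -0.12 for transport motors, of which the last turned to 0.04 when arrays were scaled by their 75th percentile and all became positive when they were scaled by the spike-in RNA. Over all genes that percentile gave 906 genes more than 2-fold lower and 937 higher, against 1154 and 713 with the trimmed mean. The spike-ins gave 327 and 5941. The median of all genes was 0.00 with that percentile and 0.89 with the spike-ins.

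**Figure D1:**
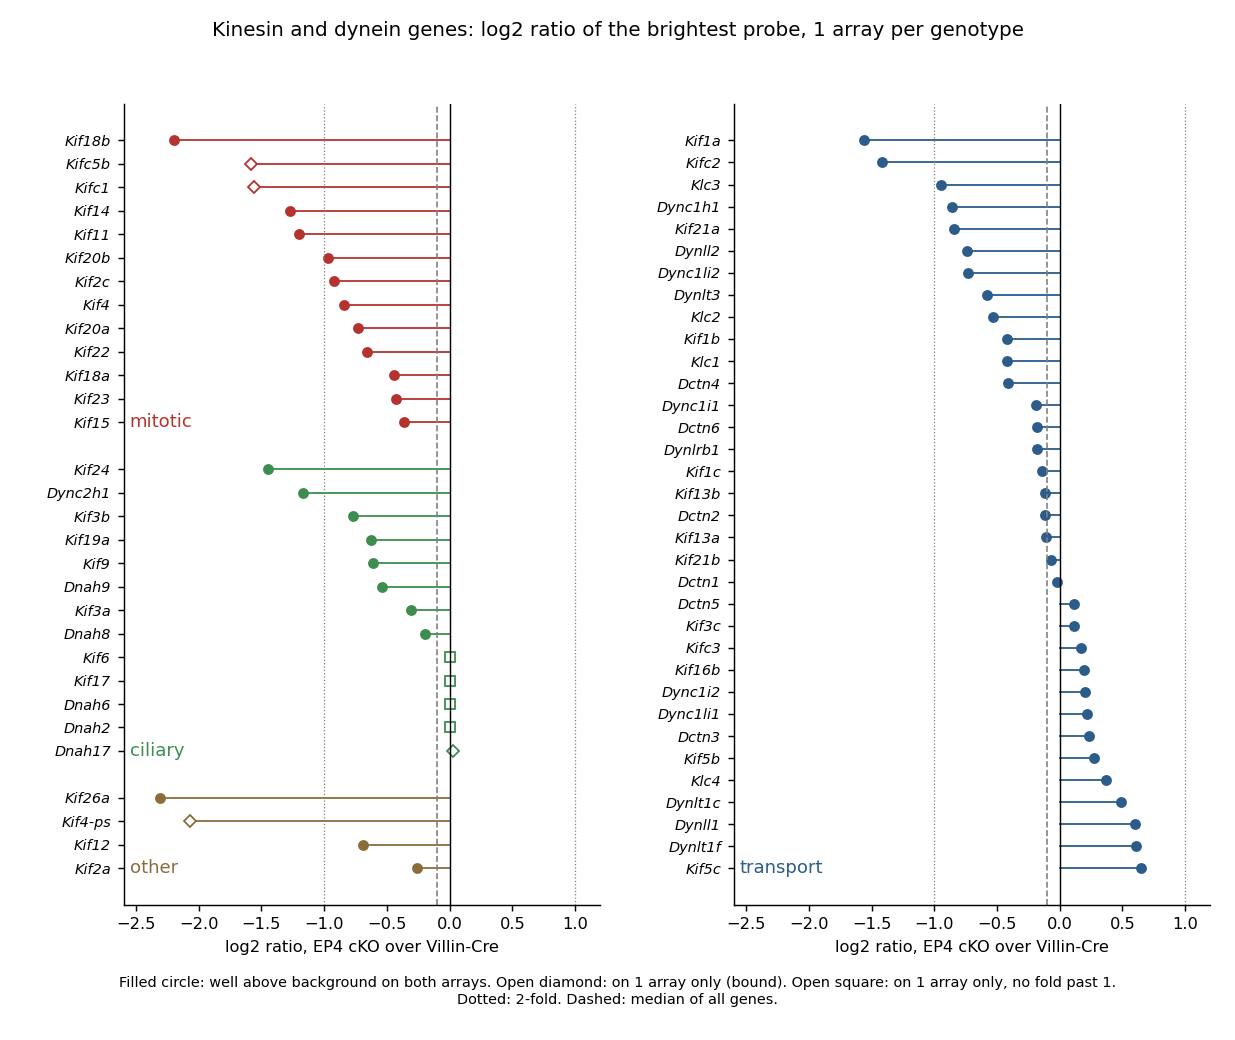
Log2 ratio (x axis, EP4 cKO over Villin-Cre) of the brightest probe of each of the 64 motor genes, grouped as mitotic, ciliary, other and transport; filled circles were well above background on both arrays, open diamonds are bounds, open squares have no fold past 1, dotted lines mark 2-fold and the dashed line the median of all genes. With trimmed mean scaling the 13 mitotic genes lie below 0, from -2.20 to -0.36, and the 34 transport genes lie on both sides; scaling by spike-ins moves the filled points up by 1.05.

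The labels were checked with the targeted gene first. The brighter probe of Ptger4 read 6227 on the control array and 5661 on the other (log2 ratio -0.14). Its dimmer probe read 393 and 592 (log2 ratio 0.59). The targeted gene thus does not separate the arrays, so directions here are those of the array labelled EP4 cKO over the one labelled Villin-Cre; whether either probe lies in the deleted part is not given in the sources used here. All 13 colon epithelium markers on the list were measured on both arrays, whereas 3 of 9 smooth muscle markers (Myh11, Lmod1 and Synpo2) and 5 of 6 enteric glia markers were dim on both. The 6 smooth muscle markers with a value had a median of 0.50, with Mylk at 0.86, Actg2 at 0.72, Acta2 at 0.62 and Tagln at 0.38 above 0 and Cnn1 more than 2-fold lower, and a summed signal of 32760 in Villin-Cre and 50180 in EP4 cKO over the list. Fibroblast markers also differed between the arrays: all 8 fibroblast markers with a value were more than 2-fold lower in EP4 cKO, with a summed signal of 14900 in Villin-Cre and 625 in EP4 cKO.

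Mitotic kinesins had the lowest median of the mitotic, transport and ciliary classes. They are motors of the spindle and the chromosomes, and 13 of the 14 with a probe had a value; Kif2b was dim on both arrays. All 13 had a log2 ratio below 0, 10 were more than 1.5-fold lower and 5 more than 2-fold lower, with trimmed mean scaling. Over the 11 measured on both arrays the median was -0.84. With the spike-in scaling 5 of the 13 remained below 0, beside 1058 of all 14669 genes. With normexp and quantile normalization 12 did, beside 7260 of 14664 genes, and with loess 12, beside 6835 of 14669. The number more than 2-fold lower was 1 with normexp and quantile normalization (Kif18b), 3 with loess (Kif14, Kif18b and Kifc5b) and 1 with the spike-ins (Kif18b), and the number more than 1.5-fold lower was 5, 7 and 1.

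Kif18b, a kinesin that acts at the plus ends of astral microtubules and helps to position the spindle, read 547 in Villin-Cre and 119 in EP4 cKO, a log2 ratio of -2.20. Kif14, which acts at the midbody in cytokinesis, read 654 and 271, a log2 ratio of -1.27. Kif11, the kinesin-5 that slides antiparallel microtubules apart to make the spindle bipolar, read 634 and 277, a log2 ratio of -1.20. These 3 probes were well above background on both arrays, and each passed 2-fold. The other probes of Kif14 were dim on both arrays (29.0 and 27.3, and 48.8 and 14.1).

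Kifc1 is the minus-end-directed kinesin-14 that clusters spindle poles, and Kifc5b is a near-identical copy of it, so their probes may read the same transcripts. Kifc1 read 171 in Villin-Cre and was not well above background in EP4 cKO (53.8), which makes it at least 2.95-fold lower. Kifc5b read 174 in Villin-Cre and was also dim in EP4 cKO (45.5), at least 3.00-fold lower. Both calls rest on a bound and on a Villin-Cre signal close to the floor of 125. The floors are unequal, at 125 for Villin-Cre and 57.8 for EP4 cKO. A probe well above background in Villin-Cre only, with an EP4 cKO signal under 57.8, therefore passes 2-fold lower by construction. A probe well above background in EP4 cKO only does not pass 2-fold higher in the same way. Dnah2, with 28.1 and 123, was counted as 0.

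The other mitotic kinesins lay between -0.97 and -0.36. Kif20b, a kinesin-6 of the late midbody, read 2078 and 1062, a log2 ratio of -0.97, and its second probe gave -0.85. Kif2c, the microtubule-depolymerizing kinesin-13 of centromeres, read 214 and 113, a log2 ratio of -0.92. Kif4, the chromokinesin that shapes the central spindle, read 634 and 355, a log2 ratio of -0.84. For these genes the fold was below 2 in each case.

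Kif20a, needed at the central spindle for cytokinesis, read 2473 and 1494, a log2 ratio of -0.73. Kif22, the chromokinesin that pushes chromosome arms away from the poles, read 6106 and 3857, a log2 ratio of -0.66. Kif18a, which dampens chromosome movements in metaphase, read 227 and 168, a log2 ratio of -0.44. Kif15, a kinesin-12 that can help to hold the spindle bipolar, gave the smallest difference of the class, with 167 and 130 and a log2 ratio of -0.36. Kif23, the motor subunit of centralspindlin, read 1067 and 790 on its brightest probe, a log2 ratio of -0.43, and 564 and 208 on its second, a log2 ratio of -1.44. Both Kif23 probes were lower in EP4 cKO, but only the second passed 2-fold.

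**Figure D2:**
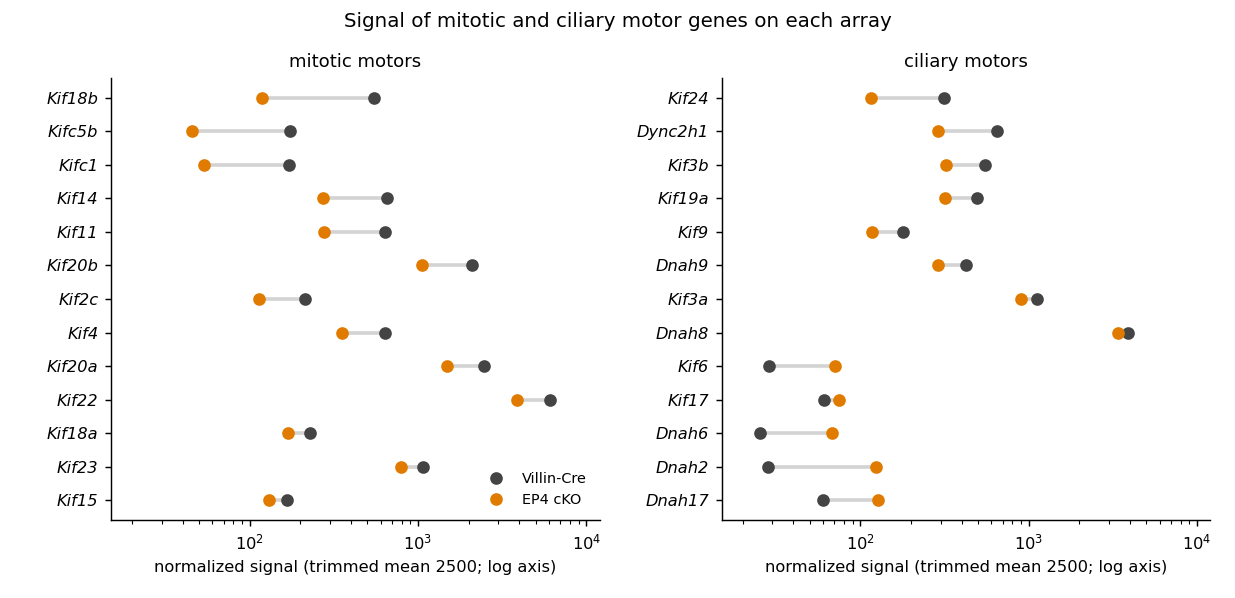
Normalized signal (x axis, log scale, arbitrary units with a trimmed mean of 2500) of the 13 mitotic and 13 ciliary motor genes with a value; grey points are the Villin-Cre array and orange points the EP4 cKO array, joined by a line. With this scaling the EP4 cKO point lies to the left for all 13 mitotic genes and for 8 ciliary genes, whereas the 5 ciliary genes at the bottom, with Villin-Cre signals of 25.5 to 61.1, were not well above background in Villin-Cre.

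Over all genes the ratio varied with signal. The mitotic genes had mean signals between 88.9 and 4850, and among the 8879 genes in that range 61.4% had a log2 ratio below 0, 9.85% were more than 2-fold lower and the median was -0.17. After a loess correction of the ratio for signal, the median of the mitotic kinesins was -0.59 and that of the 8879 genes 0.04, and 5.94% of those genes were more than 2-fold lower. Spots that repeat 1 probe give a scale for the technical error: over 18 probes with 8 to 10 spots in this range the median SD of the log2 ratio was 0.085, and over the 7 of them with a mean signal below 500 it was 0.190. Each mitotic kinesin was read by a single spot per probe, so its own error is unknown.

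**Figure D3:**
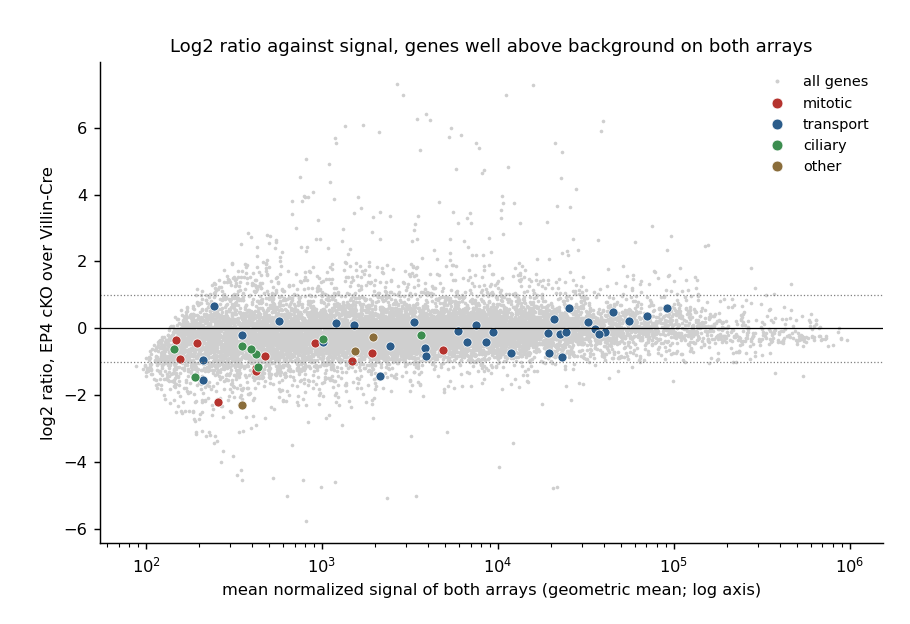
Log2 ratio (y axis, EP4 cKO over Villin-Cre) against the geometric mean of the 2 normalized signals (x axis, log scale) for genes well above background on both arrays; grey points are all such genes and coloured points are the motor genes by class, with dotted lines at 2-fold. The spread of all genes widens and shifts downwards at low signal, where most mitotic and ciliary motors lie, while most transport motors lie at higher signal; the spike-in scaling would raise all points by 1.05.

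The partners of these motors gave similar values. A list of 30 genes of the spindle, kinetochore and cytokinesis machinery had a value for all 30, of which 29 had a log2 ratio below 0 and 6 were more than 2-fold lower, with a median of -0.72 (-0.64 after loess); with the spike-in scaling 4 were below 0, 0 were more than 2-fold lower and the median was 0.33. The lowest of those measured on both arrays were Kntc1, a kinetochore protein that recruits dynein, with 1548 and 410 and a log2 ratio of -1.92, Spag5, a spindle-pole protein, with -1.14, and Ckap2, a spindle microtubule protein, with -1.13. The list also holds Cenpe, a kinesin of the kinetochore that the name rule does not take, which read 6056 and 2997, a log2 ratio of -1.02; it was singled out after its value was seen.

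Markers of proliferating cells had a median near 0 with trimmed mean scaling and above 1 with the spike-ins. Of the 10 on the list, 5 had a log2 ratio below 0 and 1, Mki67, was more than 2-fold lower at -1.12, with a median of 0.05 and a summed signal of 93980 in Villin-Cre and 87790 in EP4 cKO. The highest were Mcm3 at 0.72, Pcna at 0.34 and Mcm6 at 0.25, genes of DNA replication. The others below 0 were Top2a at -0.88, Rrm1 at -0.31, Tyms at -0.12 and Mcm5 at -0.05. Genes of the Mcm family thus lay on both sides of 0. The part of cell composition in the values of the mitotic kinesins was not tested.

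The promoters of mitotic genes often hold a CCAAT box, read by NF-Y, and a cell cycle homology region (CHR), read by the DREAM and MuvB complexes, and these are shown for 4 of the mitotic kinesins that were more than 2-fold lower, as the stretch the letters were searched in. Kif14, the other such kinesin, is not shown because its window lies inside the annotated gene. Each line holds the 250 bases before the annotated start, 5′ to 3′ on the gene's strand, from RefSeq on GRCm38.p6, with the CCAAT box (CCAAT, or ATTGG on the other strand) and the CHR (TTTGAA, or TTCAAA on the other strand) in capitals. The build is that of the promoter table and not of the array design.
Kif18b (chr11:102925125-102925374, minus strand): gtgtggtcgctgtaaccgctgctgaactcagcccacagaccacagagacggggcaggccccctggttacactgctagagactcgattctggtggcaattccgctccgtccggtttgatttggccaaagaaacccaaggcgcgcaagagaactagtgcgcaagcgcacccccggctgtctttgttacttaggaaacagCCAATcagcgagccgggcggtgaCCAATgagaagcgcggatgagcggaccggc
Kif11 (chr19:37376132-37376381, plus strand): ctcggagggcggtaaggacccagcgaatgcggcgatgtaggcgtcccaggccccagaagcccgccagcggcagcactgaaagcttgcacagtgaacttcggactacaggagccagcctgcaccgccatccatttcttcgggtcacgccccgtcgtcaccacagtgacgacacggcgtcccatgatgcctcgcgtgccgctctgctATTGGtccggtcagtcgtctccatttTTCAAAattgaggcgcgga
Kifc1 (chr17:33890634-33890883, minus strand): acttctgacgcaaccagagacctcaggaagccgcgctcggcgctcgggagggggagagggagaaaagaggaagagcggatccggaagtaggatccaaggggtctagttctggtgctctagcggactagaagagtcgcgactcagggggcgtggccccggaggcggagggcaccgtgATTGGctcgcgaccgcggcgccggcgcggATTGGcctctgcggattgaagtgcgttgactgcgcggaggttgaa
Kifc5b (chr17:26916841-26917090, plus strand): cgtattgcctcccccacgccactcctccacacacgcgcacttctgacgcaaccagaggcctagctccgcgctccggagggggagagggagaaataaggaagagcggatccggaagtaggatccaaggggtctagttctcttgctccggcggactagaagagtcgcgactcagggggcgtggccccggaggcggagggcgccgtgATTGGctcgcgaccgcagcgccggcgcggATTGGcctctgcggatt
Kif18b holds 2 CCAAT boxes, which begin 53 and 30 bases before its start, and no CHR in this window. Kif11 holds 1 CCAAT box, which begins 45 bases before the start, and 1 CHR, which begins 19 bases before it. Kifc1 and Kifc5b each hold 2 CCAAT boxes, and the longest run of identical bases in their windows is 51 bases.

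Among the motor genes with a value, 51 had a promoter window, and 41 of these windows did not lie inside the annotated gene. Of the mitotic kinesins, Kif14 and Kif2c are left out for this reason, and Kif20a had no window. A CCAAT box was found in 7 of 10 mitotic windows, 8 of 21 transport windows and 4 of 8 ciliary windows, beside 34.9% of the 23523 such windows of all genes. The CHR letters TTTGAA were found in 3 of 10 mitotic windows, 0 of 21 transport windows and 1 of 8 ciliary windows, beside 16.8% of all. At least 2 CCAAT boxes were found in 5 of 10 mitotic windows, beside 10.8% of all, and a CCAAT box together with a CHR in either of its forms (TTTGAA or TTCGAA) in 2 of 10, beside 6.39% of all. Both motifs were searched on both strands and can overlap at their ends only. Kifc1 and Kifc5b share their sequence and are not separate cases, and a match is a description of letters only.

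The transport motors lay on both sides of 0. These carry vesicles, organelles and protein complexes in every cell, and 34 of the 35 with a probe were well above background on both arrays. 21 had a log2 ratio below 0 and 13 above it with trimmed mean scaling, 2 were more than 2-fold lower and 0 higher, and the values ran from -1.56 to 0.65. The median of -0.12 stood beside -0.10 for all genes. It was 0.04 beside 0.00 for all genes with 75th percentile scaling, and 0.93 beside 0.89 with the spike-ins.

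Of the 34 transport motors, 2 were more than 2-fold lower, a smaller share than the 7.87% of all genes. Both are known from neurons. Kif1a, the kinesin-3 of synaptic vesicle precursors, read 363 in Villin-Cre and 123 in EP4 cKO, a log2 ratio of -1.56, as the mean of 10 spots per array with an SD of the log2 ratio of 0.280. Kifc2, a kinesin with a C-terminal motor found in neurons, read 3489 and 1301 on its brightest probe, a log2 ratio of -1.42, and 254 and 164 on its second, a log2 ratio of -0.63. Only the brighter probe of Kifc2 passed 2-fold, and the other probe of Kif1a was dim on both arrays (43.3 and 29.7). Kif1a did not pass it with normexp and quantile normalization (-0.64), and with the spike-in scaling neither gene did (-0.51 for Kif1a and -0.37 for Kifc2).

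Other motors of neurons had no common direction. Kif5a, the neuronal kinesin-1 heavy chain, was dim on both arrays, with 83.8 and 19.2. Kif5c, the other neuronal kinesin-1, went the opposite way to Kif1a, with 195 in Villin-Cre and 305 in EP4 cKO and a log2 ratio of 0.65. Kif21a, an axonal kinesin-4 that is also made outside neurons, read 5186 and 2905, a log2 ratio of -0.84. The neuronal motors thus had values of both signs with trimmed mean scaling.

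Of 15 enteric neuron markers, 7 were dim on both arrays, among them Ret and Prph, and the 8 with a value had a median of -1.08, with 6 below 0 and 4 more than 2-fold lower. Their median was -0.60 over the 6 measured on both arrays, -0.48 with normexp and quantile normalization and -0.03 with the spike-ins, where 1 was more than 2-fold lower. The lowest measured on both arrays were Nefm at -1.94, Uchl1 at -1.43 and Elavl4 at -0.82. The summed signal of the list was 40860 in Villin-Cre and 53120 in EP4 cKO, of which Snap25 alone gave 35810 and 50740. Enteroendocrine cells share vesicle genes with neurons, and 3 of their 8 markers were more than 2-fold lower, with a median of -0.72 (0.34 with the spike-ins, where 0 were more than 2-fold lower) and a summed signal of 100100 and 53090. The part of these cell types in the values of Kif1a and Kifc2 was not tested.

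Kinesin-1, the plus-end motor of most cargo, joins heavy chains to light chains that bind the load. Kif5b, the heavy chain of all cells, read 19060 and 23040 on its brightest probe, a log2 ratio of 0.27, and its 4 probes ran from 0.05 to 1.05. Klc4 read 61740 and 79790, a log2 ratio of 0.37, and its second probe gave 0.38. Klc1 read 1168 and 873 (-0.42), with -0.53 and -0.51 on its other probes. Klc2 read 2923 and 2030, a log2 ratio of -0.53. With trimmed mean scaling the light chains thus had values of both signs beside a heavy chain above 0. Klc3 read 292 and 151 on its brightest probe, a log2 ratio of -0.95, while a second probe was dim in Villin-Cre (74.6) and read 545 in EP4 cKO, at least 4.35-fold higher, so that no direction can be given for Klc3.

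Cytoplasmic dynein 1 is the minus-end motor of the cell body, built on a heavy chain with intermediate, light intermediate and light chains. Its heavy chain Dync1h1 read 31260 in Villin-Cre and 17210 in EP4 cKO, a log2 ratio of -0.86, while a second probe (138 and 81.6) was well above background on 1 array only and left no fold. Of the light intermediate chains, which link the motor to adaptors, Dync1li2 read 15360 and 9269, a log2 ratio of -0.73 (-0.56 on its second probe), and Dync1li1 read 524 and 612, a log2 ratio of 0.22. Of the intermediate chains, which bind dynactin, Dync1i2 read 30280 and 34780, a log2 ratio of 0.20, and Dync1i1, the form of neurons, read 377 and 331, a log2 ratio of -0.19. With trimmed mean scaling the chains of the same complex thus had ratios of both signs, with the heavy chain at the low end.

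The light chains were split by paralog. Dynll1, a hub protein that also binds many partners outside dynein, read 74410 in Villin-Cre and 112900 in EP4 cKO, a log2 ratio of 0.60. Its paralog Dynll2 read 25320 and 15160, a log2 ratio of -0.74. Dynlt1c and Dynlt1f, near-identical copies whose probes may read the same transcripts, read 38090 and 53470 (0.49) and 20460 and 31270 (0.61), whereas Dynlt3 read 4689 and 3143, a log2 ratio of -0.58. Dynlrb1 read 39700 and 35130 (-0.18) on its brightest probe and gave 0.18 on its second. With trimmed mean scaling, the Dynll and Dynlt families thus each held forms on both sides of 0, and no light chain passed 2-fold.

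Dynactin is the activator that ties dynein to its cargo, and its 6 subunits ran from -0.41 to 0.23. Dctn1, the p150Glued arm, read 36160 and 35590, a log2 ratio of -0.02. Dctn2, the dynamitin subunit of the shoulder, read 42530 and 39050, a log2 ratio of -0.12, and Dctn3, its shoulder partner, read 51190 and 60150, a log2 ratio of 0.23. The largest fold of those 3 subunits was 1.18. Of the pointed-end subunits, Dctn4 read 7653 and 5765 (-0.41), Dctn5 read 7260 and 7824 (0.11) and Dctn6 read 24070 and 21240 (-0.18). The 6 genes of the dynactin filament, actin-related proteins and capping proteins, had a median of -0.05 (0.10 with 75th percentile scaling, and also above 0 with the spike-ins). None passed 2-fold, and the values ran from -0.44 for Capza1 to 0.71 for Capza2.

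Among the other cargo kinesins, Kif1b read 9833 and 7359, a log2 ratio of -0.42, and its 4 probes ran from -0.46 to 0.47. Kif1c, Kif13a and Kif13b, kinesin-3 motors of endosomes and other vesicles, were at -0.14, -0.11 and -0.12 on their brightest probes, and a dimmer probe of Kif13b was at -1.54. Kif16b, a motor of early endosomes, was at 0.19 with further probes at 0.02 and -0.40, and Kif21b was at -0.07 with a further probe at -0.76. Kifc3, a minus-end kinesin of epithelial junctions, was at 0.17 and Kif3c, a kinesin-2, at 0.11. These genes lay within 1.5-fold on their brightest probes.

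Of 32 cargo adaptors and dynein regulators, 30 had a value, with 21 below 0, 3 more than 2-fold lower, 0 higher and a median of -0.22. The lowest measured on both arrays were Mapk8ip1, a kinesin-1 adaptor, at -1.43, Hook3, a dynein adaptor, at -1.18 and Rab11fip3, an adaptor of recycling endosomes, at -0.82. The spike-in scaling turned the median of this list to 0.66. With trimmed mean scaling the tracks themselves gave medians of -0.05 for 17 of 19 tubulins, 3 of them more than 2-fold lower (Tubb6 at -1.67, Tubb5 at -1.12 and Tube1 at -1.02), and -0.11 for 23 of 30 microtubule-associated proteins, 1 of them more than 2-fold lower (Map1b at -1.24). After loess these medians were 0.16 and 0.04, with normexp and quantile normalization 0.12 and 0.00, and with the spike-ins 1.01 and 0.78, where 0 genes of either list were more than 2-fold lower. Of the next lowest of these proteins, Dclk2 was at -0.99 and Stmn1 at -0.77.

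Ciliary motors were the class with the most genes under the limit: of 22 with a probe, 13 had a value, 8 of these on both arrays, and 9 were dim on both. The dim genes were 5 axonemal dynein heavy chains (Dnah1, Dnah5, Dnah7a, Dnah10 and Dnah11), the light chain Dynlrb2, the dynein 2 light intermediate chain Dync2li1, and the kinesins Kif7 and Kif27. 8 genes had a log2 ratio below 0, 1 above and 4 at 0 with trimmed mean scaling, 2 were more than 2-fold lower and the median was -0.31, or -0.62 over the 8 measured on both arrays; it became 0.42 with the spike-ins.

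The 2 genes past 2-fold with trimmed mean scaling act in primary cilia. Kif24, a kinesin-13 that restrains the growth of cilia at the mother centriole, read 315 in Villin-Cre and 115 in EP4 cKO, a log2 ratio of -1.45. Dync2h1, the heavy chain of dynein 2 that carries loads back from the tip of the cilium, read 650 and 289, a log2 ratio of -1.17, and its second probe was dim on both arrays. Neither passed 2-fold with normexp and quantile normalization (-0.54 for Kif24 and -0.56 for Dync2h1), and Dync2h1 did not with loess either (-0.92). Of the kinesin-2 motor of outward transport, Kif3a read 1124 and 904, a log2 ratio of -0.31 (-0.75 on its second probe), and Kif3b read 554 and 324, a log2 ratio of -0.77. Dync2h1, Kif3a and Kif3b thus had values below 0 on every probe measured on both arrays with trimmed mean scaling. So did 57.5% of all genes on their brightest probe, and Kif3a was at -0.12 after loess. With the spike-in scaling only Dync2h1 of these stayed below 0, at -0.11.

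Kif17, an accessory kinesin-2, was dim in Villin-Cre (61.1) and read 74.4 in EP4 cKO, which leaves no fold. Kif9 and Kif19a, kinesins of motile cilia, were at -0.61 and -0.63 with 179 and 117 and with 491 and 317. Kif9 had 3 further probes, each well above background on 1 array only and without a fold, and its value was -0.15 as the mean of its probes and -0.02 with loess. Kif6 read 28.6 and 70.7 and was dim in Villin-Cre, so it too has no fold.

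Of the axonemal dyneins, which power the beat of motile cilia, Dnah8 read 3911 and 3396, a log2 ratio of -0.20, and Dnah9 read 424 and 291, a log2 ratio of -0.54. Dnah2 (28.1 and 123), Dnah6 (25.5 and 68.1) and Dnah17 (59.9 and 128) were dim in Villin-Cre and well above background in EP4 cKO. Their signals there did not exceed the Villin-Cre floor of 125 by more than 1.02-fold, so their values say little of direction.

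The markers of multiciliated cells were mostly under the limit as well. Of 20 with a probe, 11 were dim on both arrays, among them Foxj1, the master regulator of motile cilia, at 27.1 and 12.3, and Ccdc39. The 9 with a value had a median of -0.52 with 3 more than 2-fold lower, but the median was -0.29 over the 6 measured on both arrays, -0.10 after loess, 0.03 with normexp and quantile normalization and 0.50 with the spike-ins. Of those measured on both arrays, Hydin was at -1.26, Rsph1 at -0.56 and Rsph9 at -0.52. The summed signal was 51690 and 76280, of which the probe of Mcidas gave 48410 and 73950. Of 35 genes of the intraflagellar transport trains and the BBSome, the cargo of the ciliary motors, 34 had a value, with 23 below 0, 4 more than 2-fold lower, 2 higher and a median of -0.26 (-0.01 after loess and 0.79 with the spike-ins). The lowest measured on both arrays were Ift80 with 2260 and 202 (-3.48), Ift122 (-1.45) and Wdr60, a dynein 2 intermediate chain (-1.15). The part of cell composition in the ciliary values was not tested.

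In 5 genes outside the 3 classes, 4 had a value. Kif26a, an atypical kinesin without ATPase activity that is known for its part in the enteric nervous system, read 777 in Villin-Cre and 157 in EP4 cKO, a log2 ratio of -2.31, while its second probe and both probes of its relative Kif26b were dim on both arrays. Kif26a had the lowest log2 ratio of the 64 genes with trimmed mean scaling when bounds are counted at their limit. Without a filter on dim probes Kif4-ps was lower, at -4.31. Kif4-ps, a pseudogene that shares sequence with Kif4, read 243 and was dim in EP4 cKO (12.2), at least 4.21-fold lower (a log2 ratio of -0.80 with normexp and quantile normalization, which does not pass 2-fold), and the 2 genes cannot be told apart with certainty. Kif12, found in epithelia such as kidney, read 1968 and 1220, a log2 ratio of -0.69 (-0.56 on its second probe). Kif2a, a kinesin-13 relative of Kif2c that acts in dividing and in resting cells, read 2139 and 1783, a log2 ratio of -0.26, but a second probe was dim in Villin-Cre (73.0) and read 798 in EP4 cKO, at least 6.37-fold higher. The 2 Kif2a probes thus differed in direction with trimmed mean scaling.

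Some motor genes were read by several probes. 19 motor genes had at least 2 probes well above background on both arrays; in 16 all probes had the same sign with trimmed mean scaling, and in 3 (Dynlrb1, Kif16b and Kif1b) they had opposite signs. The median range between probes of a gene was 0.29. The widest ranges were those of Kif13b (-0.12 and -1.54), Kif23 (-0.43 and -1.44) and Kif5b (0.05 to 1.05). Probes of 1 gene can read different transcripts, and they share the RNA of the array, so they are no replicates.

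**Figure D4:**
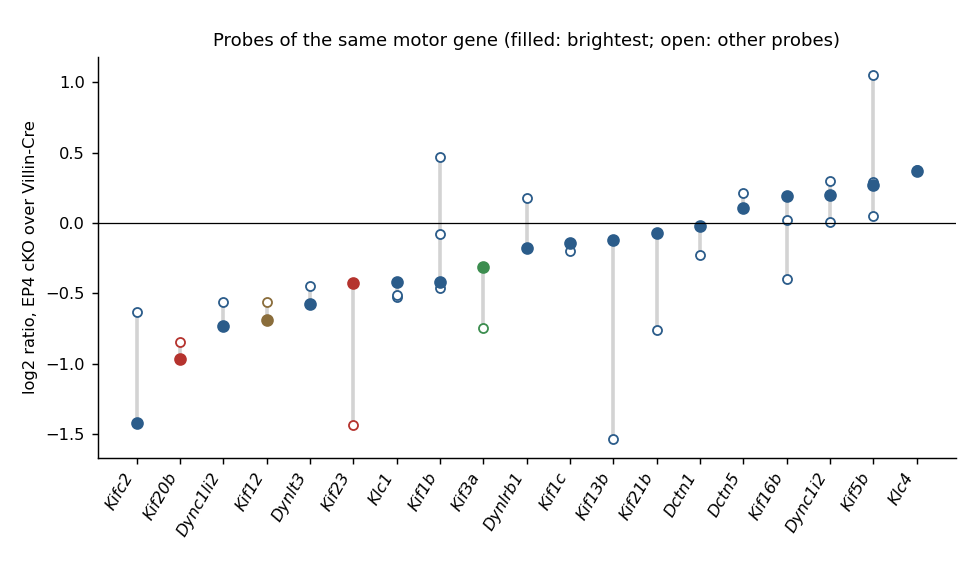
Log2 ratio (y axis, EP4 cKO over Villin-Cre, trimmed mean scaling) of each probe well above background on both arrays, for the 19 motor genes with at least 2 such probes; the filled point is the brightest probe, open points are the others, the grey line their range, and colours give the class (red mitotic, blue transport, green ciliary, brown other). The probes of 16 genes lie on 1 side of 0, and the median range is 0.29; scaling by spike-ins moves every point up by 1.05.

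**Figure D5:**
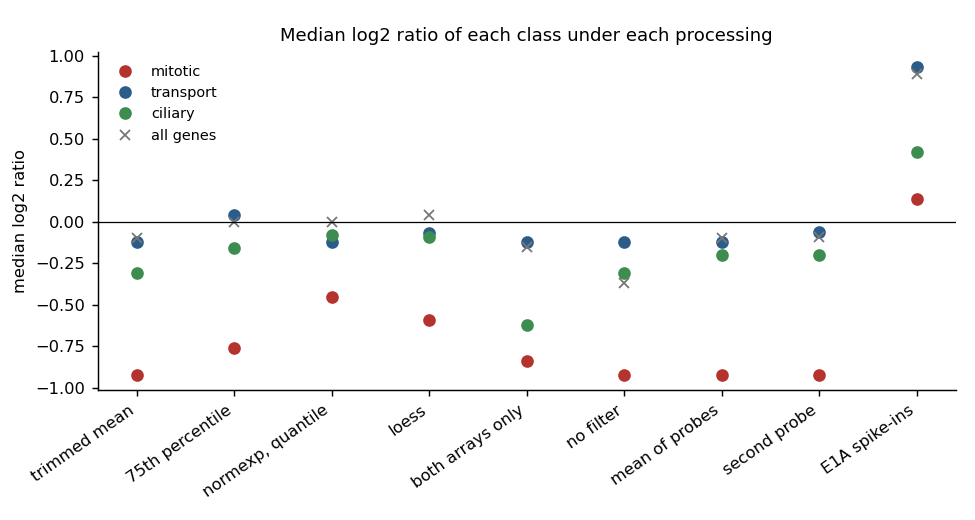
Median log2 ratio (y axis, EP4 cKO over Villin-Cre) of the mitotic, transport and ciliary motors and of all genes (crosses) under each processing (x axis). The mitotic median is the lowest of the 4 under each processing, from -0.92 to -0.45, and is 0.14 with the spike-ins; the transport median is 0.04 with the 75th percentile.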

How the data were processed

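Gene expression was measured on 2 SurePrint G3 Mouse arrays (Agilent, 1 colour), 1 per genotype. The authors deposited the scanner output (Feature Extraction 12.0.3.1 by its header, 11.5.1.1 by the submitters' processing notes), in which the processed intensity of each spot is background-subtracted. The flags for control, outlier, saturated and well-above-background spots were used as deposited. Spots of a probe were averaged, and each array was scaled to a trimmed mean of 2500 without 2% of the probes at each end (unscaled, these means were 724 and 931 for the control and the EP4 cKO), as the methods describe. Of 56593 probes, 45.4% and 51.6% were well above background, and 32989 (58.3%) matched a gene of GRCm38.p6 by RefSeq accession. The array grid refers to mm9, so no probe coordinate is given.

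A probe counted as well above background when at least 50% of its spots were. No test was possible with a single array of each genotype, and the number of arrays limits the precision. The members, classes and gene lists were chosen with earlier results of these data known. Named were all motor genes with a value, with both signals for those past 2-fold, those with the highest signals of each class and the subunits of complexes. Of other lists, up to 3 genes with the largest change in the direction of the median were named. In some lists further genes were named without a fixed rule. Alternatives were 75th percentile scaling, normexp (offset 50) with quantile normalization (limma 3.58.1, R 4.3.3), loess (span 0.3, statsmodels 0.14.6), 2 filters, 2 other choices of probe and a 1.5-fold threshold; scaling by the Agilent E1A spike-ins was chosen after seeing the data. The calculation was tested on simulated data. Python 3.11.15 was used.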

Additional observations from a re-analysis of the deposited data

How the results depend on the processing

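Under 75th percentile scaling 11 motor genes were more than 2-fold lower, and the medians of mitotic, transport and ciliary motors were -0.76, 0.04 and -0.16. The transport median thus changed sign, while that of all genes was 0.00. Normexp with quantile normalization left 3 lower (Kif18b, Kif26a and Kifc2) and 1 higher (Klc3), with medians of -0.45 (mitotic) and -0.08 (ciliary). Loess left 8 lower (without Dync2h1, Kif11 and Kifc1), with medians of -0.59, -0.07 and -0.09. With only probes well above background on both arrays, 8 were lower and the medians were -0.84 (mitotic) and -0.62 (ciliary). Without a filter 4 were higher (Dnah17, Dnah2, Dnah6 and Kif6). The mean of all probes gave 1 higher (Kif2a) and a ciliary median of -0.20. The second brightest probe gave 12 lower, with Kif13b and Kif23 in place of Kifc2, 2 higher (Kif2a and Klc3), a transport median of -0.06 and a ciliary median of -0.20. The threshold of 1.5-fold gave 25 lower and 3 higher. Scaling by 7 E1A spike-ins, whose log2 ratios ran from -1.14 to -0.93, left 3 lower (Kif18b, Kif26a and Kif4-ps), gave 16 higher and turned the medians to 0.14, 0.93 and 0.42, with a changed sign for 35 of the 64 genes; it adds 1.05 by construction to each log2 ratio measured on both arrays. Scaling by the 75th percentile likewise adds a constant to these ratios, 0.16 at the median. The 2 filters and 2 other choices of probe leave a gene unchanged when its only probe with a value was measured on both arrays. For the remaining changes the cause was not tested. Kif18b and Kif26a were more than 2-fold lower under all 8 alternatives to the processing. Each had 1 probe with a value, so the 2 filters and 2 other choices of probe could not change it (-2.20 and -2.31). Their values were -1.17 and -1.20 with normexp and quantile normalization. They were -1.88 and -2.04 with loess and -1.15 and -1.26 with the spike-ins.

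The mitotic, ciliary and transport medians differ in signal range, and the dim members limit what can be seen: 12 motor genes have no value and 4 have no fold. No paired analysis was possible because each genotype has 1 array.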
